A study of Mus musculus with 54 samples.

Results

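Cyclins, cyclin-dependent kinases (CDKs) and CDK inhibitors were described here by the open chromatin around 10 of their genes in mouse embryonic stem (ES) cells: the cyclins Ccnd1, Ccnd3, Ccne1, Ccna2 and Ccnb1, the kinases Cdk1 and Cdk2, and the inhibitors Cdkn1a, Cdkn1b and Cdkn2a. Regions were taken from 1 list of merged ATAC-seq peaks when their centre lay within 50 kb of a transcription start site (TSS) of 1 of these genes in the GENCODE M21 annotation of GRCm38. This rule gave 128 peaks of 113737 in all, and no peak was counted for more than 1 gene. The cyclins had 60 of them, the kinases 34 and the inhibitors 34.

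ATAC-seq maps open chromatin with the Tn5 transposase, which cuts and tags accessible DNA. The cells were ZHBTc4 ES cells, in which doxycycline (dox) switches off a Tet-Off Pou5f1 gene encoding OCT4. They all carried mCherry-OCT4-AID, expressed at a low constant level from the PGK promoter and degraded once the auxin IAA (indole-3-acetic acid) is given, together with Tir1-V5, which that degradation needs, and YPet-MD, a fluorescent reporter of cell cycle position. The 54 samples formed 24 groups, and every group had received dox. In the cell cycle set (22 samples), cells after 26 h of dox with or without 2 h of IAA at 500 nM were sorted into 4 windows of the cycle, EG1 and LG1 (the early and the late part of G1), S and SG2 (late S and G2), with 3 samples per treatment in each but SG2, which had 2. In the washout set (16 samples), cells in 31 h of dox were sorted into the same 4 phases, 2 samples each, without IAA or with 2.5 h of IAA, and both arms then went through a washout of 4.5 h. In the time course (16 samples, 34 h of dox), 2 samples each were untreated or received IAA for 0.5, 1, 2, 3, 4, 6 or 10 h. The list gives positions only, without a value per sample, so neither the phases nor IAA could be compared, no replicate error exists for any value below, and library depth is not known.

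D-type cyclins activate CDK4 and CDK6 in G1, cyclin E activates CDK2 at the entry into S phase, cyclin A acts with CDK2 and CDK1 in S and G2, and cyclin B with CDK1 drives mitosis. The inhibitors hold these kinases back: p21 (Cdkn1a) and p27 (Cdkn1b) bind cyclin-CDK complexes, whereas Cdkn2a encodes p16Ink4a, which binds CDK4 and CDK6, and p19Arf, which restrains Mdm2 and so protects p53. ES cells are known for a short G1 phase. Promoters of genes of G2 and mitosis are known to carry CCAAT boxes, bound by NF-Y, and a cell cycle homology region (CHR), whereas E2F sites are known from genes of the G1 to S transition.

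Promoter sequences are shown because every one of the 10 genes had an open region at its own TSS. RefSeq promoters of GRCm38.p6, from 250 bases before to 50 after the start, were matched for 8 of the 10 genes (11 promoters). Ccnd1 and Ccna2 were not among the matched genes. Shown are the 6 promoters in which a CHR or an E2F site was matched, with any CCAAT box. The internal Ccnd3 promoter and the p16Ink4a start of Cdkn2a had of these motifs only a CCAAT box, and the upstream Ccnd3 promoter and both Cdkn1a promoters had none of the 3 motifs. The 170 bases before the start are printed 5′ to 3′ on the strand of the gene, with capitals for CCAAT (or ATTGG, its other strand), for a CHR (TTTGAA or TTCGAA or TTTAAA or CTTGAA, either strand) and for an E2F site (TTTCCCGC or TTTCGCGC or TTTGCCGC or TTTGGCGC, either strand). They lie at chr7:38107491-38107660 (Ccne1, minus strand), chr13:100786487-100786656 (Ccnb1, minus), chr10:69352913-69353082 (Cdk1, minus), chr10:128705052-128705221 (Cdk2, minus), chr6:134920231-134920400 (Cdkn1b, plus) and chr4:89294620-89294789 (the p19Arf start of Cdkn2a, minus).
Ccne1: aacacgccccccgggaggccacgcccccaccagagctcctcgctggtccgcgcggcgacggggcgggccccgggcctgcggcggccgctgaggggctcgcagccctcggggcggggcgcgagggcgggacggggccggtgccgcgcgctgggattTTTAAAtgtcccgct
Ccnb1: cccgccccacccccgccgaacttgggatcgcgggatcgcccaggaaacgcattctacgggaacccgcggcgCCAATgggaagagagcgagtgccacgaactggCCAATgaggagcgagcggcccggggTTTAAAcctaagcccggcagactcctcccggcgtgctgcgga
Cdk1: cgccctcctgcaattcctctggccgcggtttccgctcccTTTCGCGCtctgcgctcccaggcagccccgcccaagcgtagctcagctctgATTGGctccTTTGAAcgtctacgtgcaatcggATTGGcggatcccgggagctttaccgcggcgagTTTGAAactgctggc
Cdk2: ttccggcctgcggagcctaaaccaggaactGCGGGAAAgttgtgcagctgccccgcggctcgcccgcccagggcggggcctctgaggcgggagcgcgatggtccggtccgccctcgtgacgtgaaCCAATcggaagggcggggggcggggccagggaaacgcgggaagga
Cdkn1b: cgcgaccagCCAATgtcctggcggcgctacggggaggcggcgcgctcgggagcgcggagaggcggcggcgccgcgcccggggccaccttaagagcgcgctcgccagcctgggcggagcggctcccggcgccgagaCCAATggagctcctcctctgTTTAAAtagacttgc
Cdkn2a: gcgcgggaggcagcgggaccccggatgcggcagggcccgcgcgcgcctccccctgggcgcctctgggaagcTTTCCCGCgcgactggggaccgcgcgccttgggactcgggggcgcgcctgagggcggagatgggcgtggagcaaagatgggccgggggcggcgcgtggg

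The Cdk1 promoter held all 3 kinds of match. Counting back from the start, an E2F match began at position -131, CCAAT boxes began at positions -80 and -48, a further one at -208 lies outside the printed stretch, and CHR matches began at -71 and -15. In the Ccnb1 promoter, CCAAT boxes began at -99 and -67 and a CHR match of the TTTAAA type at -42. The Cdk2 promoter held 1 CCAAT box at -45 and 1 E2F match at -140, without a CHR match. Ccne1 had a TTTAAA match at -15, and Cdkn1b had CCAAT boxes at -161 and -35 and a TTTAAA match at -15, with a further CCAAT box 45 bases after the start, outside the printed stretch. The p19Arf promoter of Cdkn2a held an E2F match at -99. In all, 6 of the 11 promoters held a CCAAT box, 4 a CHR match and 3 an E2F match. Over all 32851 RefSeq promoters of the same length, the shares were 37.4% for CCAAT, 37.3% for the CHR and 2.26% for E2F. With TTTGAA and its variant TTCGAA alone, the CHR was matched in 1 of the 11 promoters (Cdk1) and in 19.2% of all promoters. CCAAT and the CHR are therefore frequent among promoters, and the 3 E2F matches were those of Cdk1, Cdk2 and p19Arf. A match is a description of letters and was not measured as a bound site.

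In the merged list, 14 of the 128 peaks were centred within 1 kb of a TSS of the gene itself, 28 lay within 1 kb of the TSS of another gene only, and 86 (67.2%) were distal, more than 1 kb from every TSS. Over the whole list 78.9% of the peaks were distal. Each of the 10 genes had a peak at a TSS of its own, internal ones included, whereas 70.8% of the 21938 protein-coding genes had one. It was thus found with cyclins, kinases and inhibitors alike, and with most other genes. Of 6 genes of the ES cell state all 6 had it at the own TSS, and of 6 genes of other tissues 3 had one, with Alb, Ins2 and Myh6 lacking it.

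**Figure D1:**
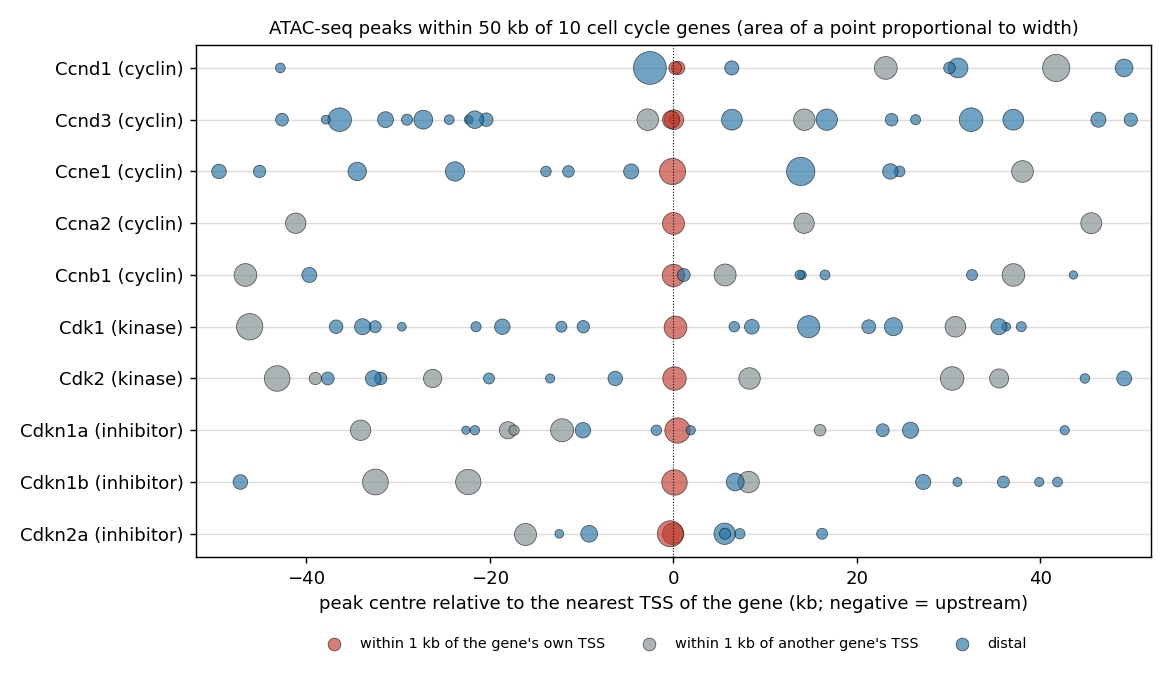
Peaks around each gene, with the distance of the peak centre to the nearest TSS of that gene on the x axis (kb, negative values upstream) and 1 row per gene. Each point is 1 of the 128 peaks, its area is proportional to its width, and colour gives its class. Ccna2 has no distal peak and Ccnd3 has 18, and the largest point is the 2650 bp peak upstream of Ccnd1.

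The peaks at the D-type cyclin genes were narrow. Ccnd1 had 2 peaks at its own TSSs, chr7:144939479-144939876 (398 bp), which covers the TSS of Ccnd1-201, and chr7:144937459-144937890 (432 bp) inside the gene. They were separated by 1588 bp without a peak, with a GC content of 57.1%. Of the protein-coding genes with a peak at their own TSS, 95.4% had a widest one of 432 bp or more. Ccnd3, another D-type cyclin, had 19 annotated TSSs and 3 peaks at them. A 227 bp peak (chr17:47505072-47505298) covered most TSSs of the long transcripts, and peaks of 948 bp (chr17:47593110-47594057) and 738 bp (chr17:47595453-47596190) lay at internal starts, with 87811 bp and 10 distal peaks between them and the first. The width of its widest peak was matched or exceeded in 77.1% of the genes with a peak. The open regions of both genes at their own starts were thus narrower than the median of 1219 bp over all protein-coding genes.

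The other cyclins had a single peak at their own TSSs. Ccne1, encoding cyclin E1, had the widest of the 14, with 1690 bp (chr7:38106803-38108492) and a GC content of 69.2%, the highest among the 128 peaks. Ccna2, encoding cyclin A2, had a peak of 1192 bp (chr3:36571360-36572551). Ccnb1, encoding cyclin B1, had a peak of 1234 bp (chr13:100785864-100787097) whose centre lay 5 bp from a TSS. The Ccna2 peak and the Ccnb1 peak thus had almost the median width of all genes.

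The kinases were close to that median as well. Cdk1, the mitotic kinase, had a peak of 1272 bp (chr10:69352139-69353410). Cdk2, the kinase of the G1 to S transition, had one of 1348 bp (chr10:128704251-128705598), which also lay within 1 kb of a TSS of the neighbouring Pmel. Among genes with a peak at their own TSS, 44.1% had one as wide as that of Cdk1 or wider, and 36.3% had one as wide as that of Cdk2 or wider.

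The widest peaks of the inhibitors at their own TSSs differed little in width. Cdkn1b, encoding p27, had 1 peak of 1591 bp (chr6:134919644-134921234). Cdkn1a, encoding p21, had 1 peak of 1578 bp (chr17:29093388-29094965) over 2 of its 5 TSSs. The centre of this peak lay 284 bp from a TSS of AC167363.2, nearer than the closest Cdkn1a TSS (396 bp). Cdkn2a had a peak at each of its 2 TSSs, 1120 bp (chr4:89281665-89282784) at the TSS of Cdkn2a-201 and 1665 bp (chr4:89294152-89295816) at that of Cdkn2a-202, with 11367 bp between them. They differed in base composition, with a GC content of 51.7% at the first and 66.5% at the second. Between 15.1% and 19.2% of the genes with a peak had one as wide as or wider than the widest of Cdkn1a, Cdkn1b or Cdkn2a.

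**Figure D2:**
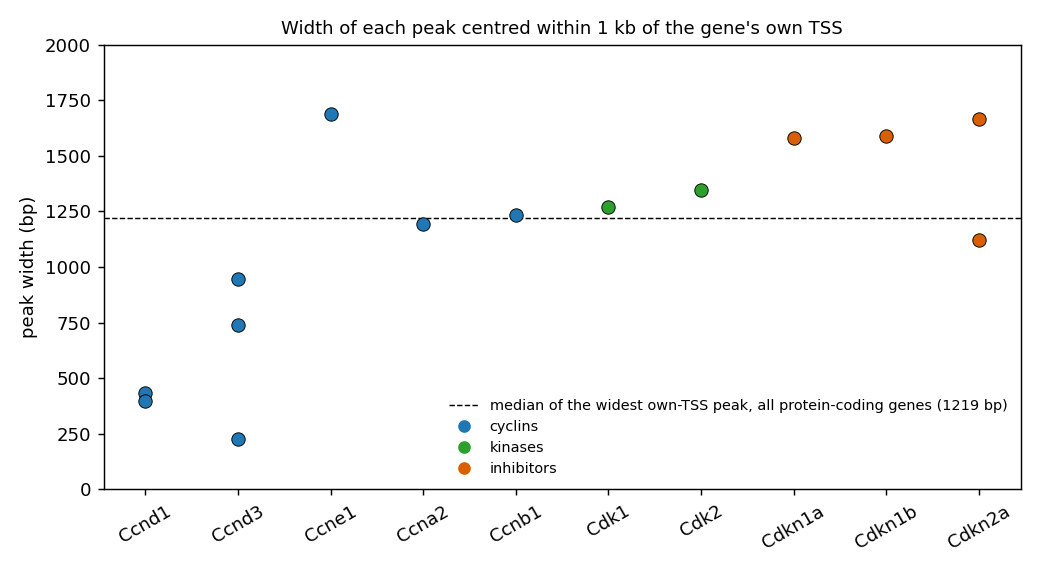
Width in bp of each of the 14 peaks centred within 1 kb of a TSS of its own gene, by gene, with the role of the gene in colour. The dashed line is the median over all protein-coding genes of their widest such peak, 1219 bp. The D-type cyclins lie below the line, the widest peak of each inhibitor lies between 1578 and 1665 bp, and Ccne1 is at 1690 bp.

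Compared by role, the widest peak per gene had a median of 1591 bp for the 3 inhibitors (1578 to 1665 bp) and 1234 bp for the 7 cyclins and kinases (432 to 1690 bp). The ranges overlap because of Ccne1 alone, and 6 of the 7 cyclins and kinases had a narrower peak than each inhibitor. Of the 14 peaks, 9 were 1000 bp wide or more, beside 48% of all TSS peaks in the list. They comprised all 4 peaks of the inhibitors and 5 of the 10 of the cyclins and kinases. The difference was not seen in the further genes of the same kind. The 4 other inhibitor genes had widest peaks of 1070 to 2034 bp. Their median of 1239.5 bp was close to the 1219 bp over all genes. Of the 8 other cyclin genes, the 7 with a peak at the own TSS had a median of 1274 bp, and the 5 other kinase genes had one of 1552 bp. No test was made, since genes are not replicates.

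The upstream start of Cdkn1a had no peak. Its TSSs at positions 29090976 and 29090979 of chromosome 17 lay 3201 and 3198 bp from the nearest peak centre, and the promoter of Cdkn1a-202 had 0 of its 300 bases in a peak, whereas the promoter of the other start lay wholly inside one. The sequence is shown because this promoter held the single match of the listed promoters to a p53 element, a pair of 10 base elements at most 13 bases apart. The match ran from position -73 to -42, with a gap between its elements, and is in capitals in the 170 bases before the start (chr17:29090809-29090978, plus strand). No mismatch was allowed in this search. The second element, GAACATGTCT, is followed directly by TGACATGTTC, in lower case below, which departs from the element only at its first base. That pair without a gap was therefore not matched, and the capitals need not mark the element as it is used.
Cdkn1a: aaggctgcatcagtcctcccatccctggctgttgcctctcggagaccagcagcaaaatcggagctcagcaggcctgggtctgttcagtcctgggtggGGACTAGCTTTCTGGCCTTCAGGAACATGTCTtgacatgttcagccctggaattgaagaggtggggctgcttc
Of all 32851 promoters, 24 (0.0731%) held such a match. None of the 128 peaks did, beside 261 of the 113737 peaks of the list (0.229%). This says only that these letters are not in the peaks. Of the 11 promoters, 9 lay wholly in a peak, and the upstream Ccnd3 promoter had 29 of its 300 bases in one.

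Distal peaks ranged from 0 to 18 per gene. Ccnd3 had 18, Cdk1 16, Ccne1 10, Cdk2 8, Cdkn1a 8, Ccnb1 7, Cdkn1b 7, Ccnd1 6, Cdkn2a 6 and Ccna2 0. All protein-coding genes had a median of 4 (quartiles 2 and 7), and those with a peak at their own TSS a median of 5. Hence 9 of the 10 genes were above the median, and 3 of 10 (Ccnd3, Cdk1 and Ccne1) had 10 distal peaks or more, beside 14% of the protein-coding genes. Ccna2 had no distal peak, as did 9.77% of the protein-coding genes. The 7 cyclins and kinases had a median of 8 (0 to 18) and the 3 inhibitors a median of 7 (6 to 8), so that the inhibitors lay inside the range of the others. Within 20 kb in place of 50 kb, the order of the medians turned, with 2 for cyclins and kinases and 3 for inhibitors.

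**Figure D3:**
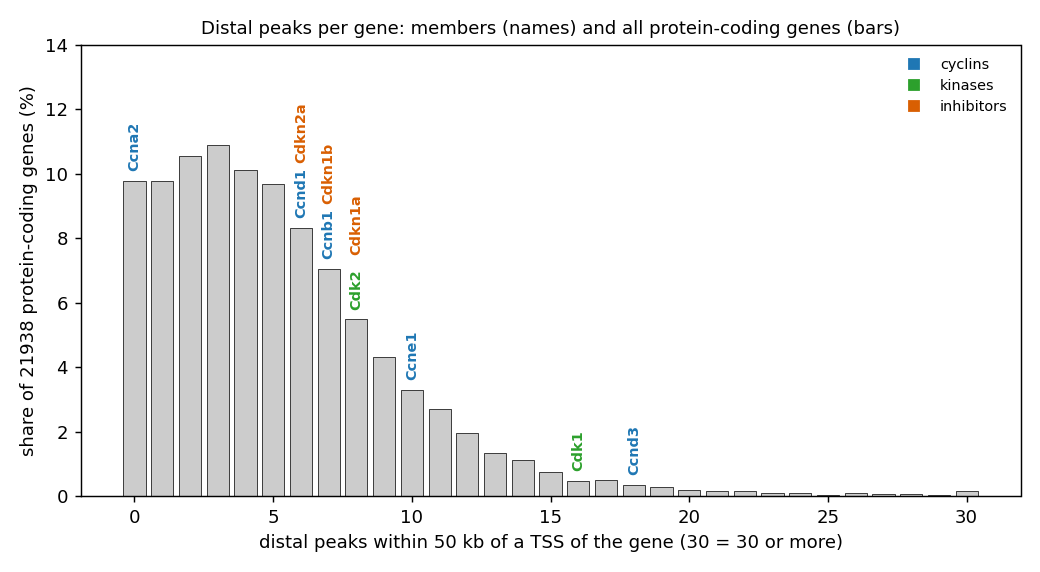
Distal peaks per gene (within 50 kb of its TSSs), with bars for the share of all 21938 protein-coding genes in percent and names of the 10 genes above the bar of their own number. Cdk1 with 16 and Ccnd3 with 18 lie in the right tail, and Ccna2 is in the bar of genes without a distal peak.

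A gene whose TSSs lie far apart covers more sequence. The neighbourhood of Ccnd3 spanned 192 kb, against 100.1 to 112 kb for the other 9 genes. Per 100 kb, Cdk1 had 14.5 distal peaks, Ccnd3 9.37, Ccne1 9.25 and Cdk2 7.96, and the lowest above 0 was Cdkn2a with 5.34. The median over all protein-coding genes was 3.92. On this scale Cdk1, and not Ccnd3, had the densest neighbourhood.

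The cyclin genes differed widely in where their distal peaks lay. Around Ccnd1, 6 distal peaks of 235 to 2650 bp included the widest distal one of all 10 genes, chr7:144941157-144943806, centred 2557 bp upstream of the nearest Ccnd1 TSS. Only 0.0523% of all distal peaks of the list were as wide. It was separated from the narrow peak at the Ccnd1 start by 1280 bp without a peak. Of the 18 distal peaks of Ccnd3, 10 lay in the gene itself, and 5 were 1000 bp or wider, from 1061 bp at the nearest (6377 bp from a TSS) to 1377 bp in an intron of Gm20517. Ccne1 had 8 of its 10 distal peaks in intergenic sequence. Its widest, 1968 bp, lay 13878 bp downstream, and its nearest, 563 bp, lay 4598 bp upstream. Ccna2 had only peaks at other TSSs, namely those of Gm11549, Exosc9 and Bbs7, and the stretch upstream of its own peak held no peak over 40245 bp. Ccnb1 also had a long upstream stretch without a peak, 38872 bp, and its 7 distal peaks were narrow, with a median of 242 bp and a maximum of 557 bp. The nearest of these lay 1125 bp from a TSS in an exon of Ccnb1, and 3 of the 7 consisted to 50% or more of annotated repeats. The number of distal peaks did not order the cyclins by phase, since the G1 cyclin gene Ccnd1 had 6 (5.90 per 100 kb) and Ccnb1 had 7 (6.66 per 100 kb).

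The kinases also differed from each other. Cdk1 had 8 distal peaks upstream and 8 downstream, 15 of them intergenic, with a median width of 417 bp and a widest one of 1211 bp at 14746 bp. The nearest lay 6634 bp from a TSS, in an exon of Cdk1. All 8 distal peaks of Cdk2 lay in introns of its neighbours Pmel, Dgka and Gm49782, the nearest at 6335 bp, none reached 1000 bp, and 4 consisted to 50% or more of repeats. Cdk2 had the most peaks at other TSSs among the 10 genes, 6 at those of Gm49782, Suox, Rab5b, Dgka and Pym1, against 2 for Cdk1 (Gm40685 and Ank3).

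The distal peaks of the 3 inhibitors had median widths of 246 bp (Cdkn1a), 301.5 bp (Cdkn2a) and 349 bp (Cdkn1b), against 380 bp over all distal peaks. Ccnb1, with 242 bp, was lower than each of them, and the medians of the 4 other inhibitor genes ran from 301 to 632 bp. Among those 4, Cdkn2b lies beside Cdkn2a, and distal peaks of Cdkn2a were counted for it too. Around Cdkn1a, 8 distal peaks of 170 to 644 bp included a pair of 210 and 271 bp inside the gene, 1890 and 1850 bp from a TSS, the latter being the nearest. Upstream, 3 peaks lay at TSSs of Trp53cor1, the lincRNA-p21 gene, and 1 at AC167363.1, and downstream 1 lay at Rab44. Cdkn1b had 6 of its 7 distal peaks downstream, the nearest and widest being 781 bp at 6739 bp, and peaks at the TSSs of Gpr19, 2810454H06Rik and Lockd. Cdkn2a had 4 of its 6 distal peaks within 10 kb. The widest, 1124 bp, was also the nearest (5588 bp) and lay in an intron of the gene, and the neighbouring inhibitor gene Cdkn2b had a peak at its TSS 16164 bp upstream.

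Taking the 65 distal peaks of cyclins and kinases against the 21 of the inhibitors, the median width was 434 bp (172 to 2650 bp) against 297 bp (170 to 1124 bp), and 380 bp over all distal peaks. Peaks of 1000 bp or more made up 8 of the 65 and 1 of the 21, and 7.28% of all distal peaks. The median distance to the nearest own TSS was 26400 bp for cyclins and kinases and 21634 bp for inhibitors, and 9 of 65 against 8 of 21 lay within 10 kb. Over all protein-coding genes, 24.0% of the pairs of a gene and a distal peak within 50 kb lay within 10 kb. A peak near several genes counts once for each of them in that share. Of the 8 inhibitor peaks, 7 belonged to Cdkn2a (4) and Cdkn1a (3). Without Cdkn1b the median distance of the inhibitors was 11145 bp. Intergenic sequence held 30 of the 65 and 5 of the 21, whereas introns held 29 and 12 and exons 6 and 4. Over all distal peaks the shares were 49.6% intergenic, 44.3% in introns and 6.14% in exons. Peaks with 50% repeats or more were 14 of the 65 and 3 of the 21, and 15.6% of all distal peaks.

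**Figure D4:**
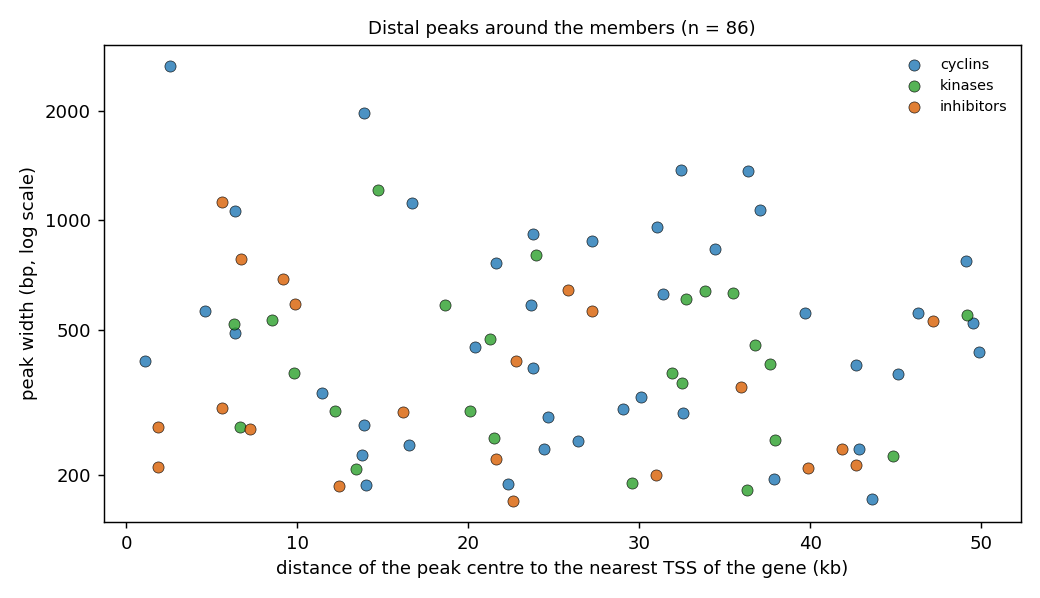
Width (bp, log scale) of the 86 distal peaks against the distance of the peak centre to the nearest TSS of the gene (kb), with 1 point per peak and the role of the gene in colour. The widest points belong to cyclins, at 2650 and 1968 bp, and 1 inhibitor peak exceeds 1000 bp.

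Sequences of peaks that held an OCT4 motif are shown, since OCT4 is the factor manipulated in these cells. The OCT motif ATTTGCAT was matched on either strand in 3 of the 128 peaks (2.34%, 95% Wilson interval 0.800 to 6.66%), beside 3.07% of all peaks. The composite of a SOX and an OCT motif, allowing 2 mismatches, was matched in 2 (1.56%, 0.430 to 5.52%), beside 0.731%. The intervals cover counting error only, and they include the shares over all peaks. The 2 motifs can overlap, and no peak held both. Neither motif was in any of the 14 peaks at own TSSs. The matches with 40 bases on each side are printed on the strand of the motif, with the match in capitals: OCT in the wide peak upstream of Ccnd1 (chr7:144941581-144941668, plus strand), OCT in a 626 bp intergenic peak 31371 bp upstream of Ccnd3 (chr17:47473503-47473590, plus), the composite in a 773 bp intergenic peak 49121 bp downstream of Ccnd1 (chr7:144888739-144888833, plus) and the composite in the 1026 bp peak at the Bbs7 TSS near Ccna2 (chr3:36613630-36613724, plus).
Ccnd1 upstream OCT: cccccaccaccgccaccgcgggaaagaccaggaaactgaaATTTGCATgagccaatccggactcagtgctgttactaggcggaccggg
Ccnd3 upstream OCT: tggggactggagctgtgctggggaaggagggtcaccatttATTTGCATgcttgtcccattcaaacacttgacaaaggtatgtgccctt
Ccnd1 downstream composite: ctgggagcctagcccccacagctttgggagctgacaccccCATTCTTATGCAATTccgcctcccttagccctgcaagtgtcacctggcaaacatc
Bbs7 composite: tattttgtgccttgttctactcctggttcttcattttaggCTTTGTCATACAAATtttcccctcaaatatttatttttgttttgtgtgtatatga
The remaining OCT match lay in the peak at the TSSs of 2810454H06Rik and Gpr19 near Cdkn1b, which held 2 copies. The composite matches differed from the composite at 2 positions each, and the OCT match upstream of Ccnd1 lay 858 bp from the centre of its peak. Within the central 300 bp of each peak, the OCT motif was in 0.781% of the 128 peaks, beside 1.73% of all peaks searched the same way, and the composite in 0%, beside 0.407%. Of the distal peaks, 2 of the 65 of cyclins and kinases held the OCT motif and 1 the composite, and 0 of the 21 of the inhibitors held either, beside 3.05% and 0.766% of all distal peaks.

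In the peaks at own TSSs, CCAAT was in 11 of 14 (78.6%) beside 60.2% of all TSS peaks, the SP motif GGGCGG in 11 of 14 beside 64.0%, CHR in 10 of 14 (71.4%) beside 64.3% and E2F in 4 of 14 (28.6%, interval 11.7 to 54.6%) beside 8.80%. The 4 with E2F belonged to Ccnd3, Cdk1, Cdk2 and Cdkn2a (p19Arf). These shares are over whole peaks and were not corrected for width. The 14 peaks had a median width of 1213 bp, against 970 bp over all TSS peaks. Among all peaks around the named genes, the E2F share was 7.03% in whole peaks and 1.56% in their central 300 bp. The E2F share over the whole list was not taken for the central 300 bp. Whether the E2F share at own TSSs exceeds what width alone would give was not tested. The CRE motif TGACGTCA was in 1 of the 14 (7.14%, interval 1.27 to 31.5%), at Ccna2, beside 3.19% of all TSS peaks. In the distal peaks E2F was in 2 of 86 (2.33%) beside 1.47% of all distal peaks, both near Ccnd1. The KLF motif (GGGTGTGGC or GGGCGTGGC) was in 7 of the 65 distal peaks of cyclins and kinases and 0 of the 21 of inhibitors, beside 4.06% of all distal peaks. It was in 1 of the 14 peaks at own TSSs, at Ccne1, beside 9.10% of all TSS peaks. The ESRRB motif TCAAGGTCA was in 3 of the 86 distal peaks (3.49%), near Ccnb1, Cdk1 and Cdkn1a, beside 3.11% of all distal peaks. Of the further motifs searched, the E-box CACGTG was in 11 of the 86 distal peaks (12.8%) beside 7.82% of all distal peaks, the AP-1 motif TGAGTCA in 12 of them beside 10.3%, and the SOX motif CATTGT in 20 (23.3%) beside 26.0%. The TATA motif TATAAA was in 13 distal peaks (15.1%) beside 22.0%. In the 14 peaks at own TSSs, SOX was in 2 beside 24.0% of all TSS peaks, TATA in 1 beside 19.2% and ESRRB in 0 beside 2.19%. The STAT motif (TTCCNGGAA) was in 2 of the 86, near Cdkn1b and Cdkn2a, and in 1889 of all 89794 distal peaks.

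CTCF, an insulator protein at the borders of chromatin domains, had its core motif in 4 of the 128 peaks (3.13%, interval 1.22 to 7.76%), beside 4.19% of all peaks. The 3 distal ones are printed because 2 of them lie in neighbourhoods rich in distal peaks and 1 near an inhibitor gene. They lie 34456 bp upstream of Ccne1 (chr7:38141871-38141962, minus strand), 35485 bp downstream of Cdk1 (chr10:69307276-69307367, minus) and 27229 bp downstream of Cdkn1b (chr6:134947538-134947629, minus), with the core in capitals.
Ccne1 CTCF: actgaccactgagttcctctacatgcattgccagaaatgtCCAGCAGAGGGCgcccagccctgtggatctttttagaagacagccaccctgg
Cdk1 CTCF: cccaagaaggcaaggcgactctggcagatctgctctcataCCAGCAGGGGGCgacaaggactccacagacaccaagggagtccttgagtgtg
Cdkn1b CTCF: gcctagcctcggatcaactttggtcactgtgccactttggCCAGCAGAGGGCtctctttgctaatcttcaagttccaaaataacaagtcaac
The other was in the peak at the TSS of Gm30684, 38027 bp downstream of Ccne1.

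The wider set of cell cycle genes, given by a list of 41 further cyclins, kinases, inhibitors and regulators, had a peak at the own TSS in 40 genes (97.6%) and a median of 6 distal peaks (0 to 14). Of this set, Cdkn2b shares distal peaks with Cdkn2a, and Cdk7 with Ccnb1, because these genes lie close together. Ccnb3 on chromosome X had no peak at all within 50 kb, and Ccnb2, a mitotic cyclin like Ccnb1, had no distal peak. The highest number, 14, was shared by E2f7 and Mdm2. In the number of distal peaks Ccnd3 and Cdk1 exceeded every one of these 41 genes. Per 100 kb only Cdk1 (14.5) did, since Ccnd3 (9.37) was below E2f7 (11.8) and Mdm2 (11.7). The 6 genes of the ES cell state had more, with a median of 13 distal peaks (3 to 26), and Esrrb with 26 was above Ccnd3. Zfp42 had 14.99 per 100 kb, above Cdk1. The 6 genes of other tissues had a median of 6 distal peaks (2 to 10), the same median as the 41 cell cycle genes. Of the genes counted, 3 of the 10 genes against 8 of the 41 had 10 or more.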

How the data were processed

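ATAC-seq was measured in 54 samples. The authors aligned reads to GRCm38 with STAR 2.6.1c, removed duplicates with Picard, called peaks with MACS2 2.1.1.20160309 and merged them with BEDTools. The deposited list holds only chromosome, start and end of each region, in bp, with no count or score. Whether libraries were pooled for calling is not given in the sources used here. The study's methods remove regions above 5 kb, those overlapping input peaks and blacklisted ones, but 11 of the list's regions exceed 5 kb, and whether the other filters were applied to it was not tested. Number and width of merged regions can depend on the number and depth of libraries.

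Here, each peak was assigned by its centre to GENCODE M21 TSSs of all transcripts, with 50 kb as the neighbourhood and 1 kb as the limit between TSS and distal peaks. Motifs were matched on both strands of the GRCm38 sequence, exactly except for the composite (2 mismatches). The motifs CCAAT, CHR and SP are short and occur often. The CHR letters TTTAAA and CTTGAA were added after the first matches had been seen. Repeats are the soft-masked bases. The genes and lists were chosen with earlier results of these data known. Named were all 10 genes, further cell cycle genes without a peak at the own TSS or with the most or fewest distal peaks, neighbours with a TSS peak, and of single peaks those at own TSSs, the widest and nearest distal ones and those with an OCT-type motif; peaks with a CTCF, E2F, CRE, KLF, ESRRB or STAT motif, the promoter with the p53 element, and Esrrb and Zfp42 were singled out after their values were seen. No test was run, because the list has no value per sample. Alternatives were a 20 kb neighbourhood, TSS limits of 500 and 2500 bp, protein-coding TSSs only, gene 5′ ends only, removal of peaks under 200 bp or above 5 kb, each gene left out in turn, and the central 300 bp for motifs. Distances and the search for all motifs except CTCF and p53 were tested on simulated data. Python 3.11.15, numpy 2.4.6, pandas 2.3.3, scipy 1.17.1 and matplotlib 3.10.9 were used.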

Additional observations from a re-analysis of the deposited data

How the results depend on the processing

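No paired analysis was possible because the list has no value per sample. With a 20 kb neighbourhood, peaks around the 10 genes fell to 55 and distal peaks to 30, the median number of distal peaks became 2 for cyclins and kinases and 3 for inhibitors, and their median distance 11818 and 6992 bp. No other choice of window, limit, TSSs or peak filter moved a count or median by more than 1.5-fold. With gene 5′ ends only, 9 of the 10 genes had a peak at the own TSS, since the 5′ end of Cdkn1a had none. Leaving out a gene moved 1 of them further, the median distance of the inhibitors without Cdkn1b. Leaving out each gene in turn gave 105 to 124 peaks, 68 to 86 distal peaks, 9 genes with a peak at the own TSS, a median of 7.5 to 9 distal peaks for cyclins and kinases and 6.5 to 7.5 for inhibitors, own-TSS widths of 1213 to 1253 and 1584.5 to 1628 bp, distal widths of 404 to 463.5 and 271 to 306 bp, and distances of 23978 to 29032 and 11145 to 25845 bp, the lowest without Cdkn1b. In the central 300 bp of each peak 13 of the 16 motif shares left the interval of the main value, since fewer bases were searched. The CHR, searched as TTTGAA or TTCGAA only (chosen after seeing the data), was in 39.1% of the 128 peaks (33.2% of all peaks) in place of 60.2% (58.4% of all peaks), and in 5 of the 14 at own TSSs in place of 10. Depth and the number of libraries that opened a peak are unknown, so width cannot be read as strength.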
